A study of Canis lupus familiaris with 16 samples.

Results

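Kinesins are motor proteins that use ATP to walk along microtubules or to shorten them. Mitotic kinesins build the spindle, move and hold chromosomes and separate the daughter cells, and dividing cells make many of them only late in the cell cycle. Most other kinesins carry vesicles, organelles and signalling proteins through the cell at all times, or build and guard the primary cilium.

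The kinesins were taken as all gene symbols that begin with KIF or KIFC followed by a number, with an optional letter, which gave 41 of the 39543 symbols in the count tables. They fall in 13 families. Of the 41 genes, 12 were counted as mitotic (KIF2C, KIF4A, KIF11, KIF14, KIF15, KIF18A, KIF18B, KIF20A, KIF20B, KIF22, KIF23 and KIFC1) and 29 formed the rest. The rule used names alone and no measured value. CENPE, the kinetochore kinesin, does not carry a KIF name and was described separately.

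RNA was sequenced from 4 canine hepatocellular carcinoma lines (KU-cHCC-001, then KU-cHCC-002, then KU-cHCC-004 and last KU-cHCC-005), each a primary culture established from the hepatic tumour of a dog. Over 24 h each line received 30 µM sorafenib or its vehicle dimethyl sulfoxide (DMSO), or 15 µM toceranib or the vehicle used for it, Dulbecco's phosphate-buffered saline (DPBS), with 1 library per line and treatment and 16 libraries in all. Sorafenib blocks RAF kinases and several receptor tyrosine kinases, and toceranib is a veterinary inhibitor of KIT and of the VEGF and PDGF receptors. The comparisons asked how each drug changed kinesin transcripts relative to DMSO of the same line. The replicates were therefore 4 lines with 1 culture each, and p-values measure the spread between these libraries.

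Libraries held 12008366 to 21943572 counts. The lines carried few hepatocyte transcripts, with albumin (ALB) at or below 0.424 CPM (counts scaled to a common library size) in all 16 libraries. In DMSO, the bile duct keratin KRT19 ranged from 2638 to 5095 CPM in 3 lines but was 21.4 CPM in KU-cHCC-001. In KU-cHCC-001 the summed level of 16 mesenchymal markers was 13540 CPM, against 2103 to 2568 CPM elsewhere. The DPBS libraries formed 2 close pairs. The library named KU-cHCC-004 differed from that named KU-cHCC-001 by 2.22 times the sampling noise, and KU-cHCC-005 from KU-cHCC-002 by 2.15 times. Other pairs within a treatment differed by 10.5 to 101 times. The DPBS library named KU-cHCC-001 did not look like that line with DMSO. Its mesenchymal markers summed to 2036 CPM (13540 with DMSO) and 10 bile duct and progenitor markers to 10170 CPM (1448 with DMSO). Which line each DPBS library came from was not tested. The fibroblast collagen COL3A1 had 0 counts in all DMSO and sorafenib libraries but with toceranib reached 6.54 CPM in KU-cHCC-004 and 51.7 CPM in KU-cHCC-005. For these reasons DMSO served as the control of both drugs, and kinesin calls between treatments that were lost without toceranib of KU-cHCC-005 are named. Calls of other genes were not checked in this way.

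The mitotic kinesins were all measured well. In DMSO each had at least 11.2 CPM in every line, and their summed level was 1148, 928, 497 and 681 CPM from KU-cHCC-001 to KU-cHCC-005. Values per line are given in this order throughout. KU-cHCC-001 had the highest level for 9 of the 12 genes and KU-cHCC-002 for the other 3, and KU-cHCC-004 had the lowest for 11. The 29 others summed to 1557, 1285, 1410 and 1348 CPM, a narrower range between lines. CPM were scaled between libraries but not for gene length, so levels were compared between libraries and not between genes.

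Mitotic kinesin transcripts were lower with sorafenib. Of the 12 genes 6 fell, namely KIF18B, KIF20A, KIF22, KIFC1, KIF15 and KIF11, and 0 rose, whereas 10.1% of all 14938 genes tested fell and 9.59% rose (19.6% in either direction). Log2 fold changes of the 12 had a median of -0.97, against -0.011 for the 24 other kinesins tested and -0.024 for all genes. Summed over the 12 genes the level with sorafenib was 961, 422, 368 and 148 CPM, lower than with DMSO in 4 of 4 lines and lowest in KU-cHCC-005. As a share of all kinesin CPM, the mitotic group made up 36.0% ± 7.77 (SD, n = 4) with DMSO. With sorafenib it made up 19.9% ± 10.5, or 33.4%, 21.6%, 16.3% and 8.46% in the 4 lines. In bulk RNA, fewer cells in division and less of each transcript per cell cannot be told apart.

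**Figure D1:**
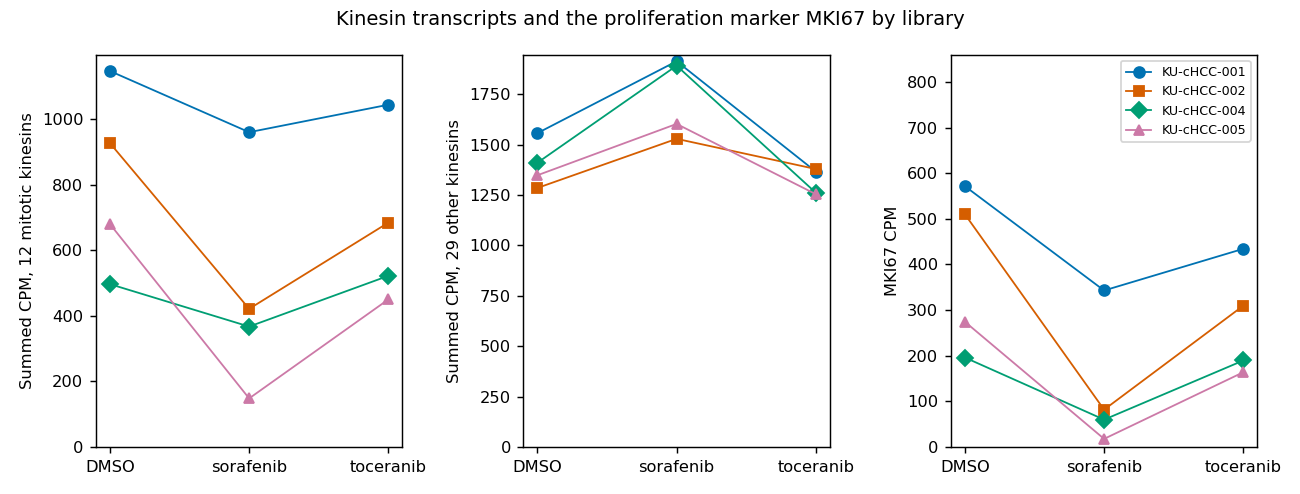
Summed CPM of the 12 mitotic kinesins (left) and of the 29 other kinesins (middle), and CPM of the proliferation marker MKI67 (right), each point 1 library and each line joining the DMSO, sorafenib and toceranib libraries of 1 cell line; the axes start at 0. The mitotic sum is lowest with sorafenib in every line, with the deepest point at 148 CPM in KU-cHCC-005, while the sum of the others is highest with sorafenib in every line.

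Among the motors that set up the spindle, KIF11, known as Eg5, pushes the poles apart. Its level was 248, 158, 106 and 142 CPM with DMSO and 155, 77.3, 90.4 and 26.8 CPM with sorafenib. Every line was lower with sorafenib, but the ranges overlapped, since KU-cHCC-001 with sorafenib stayed above KU-cHCC-004 with DMSO. The log2 fold change was -1.07 ± 0.28 (SE, edgeR adjusted p = 0.0222). KIF15, which supports a bipolar spindle beside KIF11, went from 108, 72.1, 39.9 and 51.7 CPM to 96.1, 31.9, 19.2 and 11.7 CPM, with little difference in KU-cHCC-001 and a fold change of -1.08 ± 0.30 (SE, edgeR adjusted p = 0.0296). KIFC1, a minus-end motor that focuses the poles and gathers extra centrosomes, stood at 136, 165, 64.5 and 97.8 CPM and 115, 47.6, 36.5 and 17.9 CPM, a change of -1.34 ± 0.32 (SE, edgeR adjusted p = 0.0152). For KIF15 and KIFC1 the log2 ratio to DMSO was closest to 0 in KU-cHCC-001 and most negative in KU-cHCC-005.

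Motors that move and hold chromosomes come next, with KIF18B placed in this class beside its relative KIF18A. KIF18B, which limits the length of astral microtubules, showed the most negative fold change of all kinesins tested. It went from 34.0, 27.5, 15.1 and 15.1 CPM with DMSO to 19.9, 4.24, 3.18 and 0.880 CPM with sorafenib, the last value below 1 CPM, at -2.24 ± 0.45 (SE, edgeR adjusted p = 0.00774). KIF22, a chromokinesin that pushes chromosome arms toward the spindle equator, went from 69.8, 80.9, 42.8 and 56.5 to 48.4, 26.3, 22.2 and 7.35 CPM, at -1.46 ± 0.32 (SE, edgeR adjusted p = 0.0115). Both were lower in 4 of 4 lines. The other members of this class did not pass. KIF18A, which damps chromosome movements at metaphase, is the close relative of KIF18B, yet stood at 35.0, 19.5, 11.99 and 15.7 CPM with DMSO and 39.5, 18.0, 15.8 and 8.90 CPM with sorafenib, at -0.10 ± 0.22 (SE, edgeR adjusted p = 0.788). KIF2C, a depolymerase that corrects faulty attachments of chromosomes, gave 36.2, 29.4, 19.6 and 28.3 and 64.8, 27.2, 27.1 and 20.5 CPM, higher under sorafenib in KU-cHCC-001 and in KU-cHCC-004, lower in the other lines, at 0.13 ± 0.24 (SE, edgeR adjusted p = 0.744).

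KIF20A, which brings the chromosomal passenger complex to the central spindle for cytokinesis, stood at 106, 71.8, 51.5 and 57.0 CPM with DMSO and at 58.5, 13.8, 16.1 and 3.52 CPM with sorafenib. The sorafenib library of KU-cHCC-001 lay within the DMSO range, and the other 3 lay below every DMSO library. Its change of -2.11 ± 0.39 (SE, edgeR adjusted p = 0.00588) had the lowest adjusted p of the 12. The gene model of KIF20A overlaps those of BRD8 and CDC23, and with no strand setting given its counts could include reads of either. These genes gave log2 fold changes of -0.24 (BRD8, edgeR adjusted p = 0.51) and 0.27 (CDC23, edgeR adjusted p = 0.339). KIF4A likewise overlaps PDZD11 and KIF24 overlaps UBAP1. The other cytokinesis motors did not pass. KIF23, the motor of the centralspindlin complex, stood at 164, 181, 67.5 and 100.5 and 166, 108, 57.7 and 23.9 CPM, at -0.74 ± 0.27 (SE, edgeR adjusted p = 0.0778). KIF4A, which sets the length of the central spindle, gave -0.81 ± 0.28 (SE, edgeR adjusted p = 0.0658), KIF14, a midbody motor, -0.87 ± 0.42 (SE, edgeR adjusted p = 0.172), and KIF20B -0.63 ± 0.35 (SE, edgeR adjusted p = 0.225). For these 4 the values in KU-cHCC-001 and KU-cHCC-004 lay close to DMSO, with log2 ratios of -0.23 to 0.042, while those in KU-cHCC-005 lay between -2.25 and -2.004.

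Ratios to DMSO are given for each line. On the scale of log2(CPM + 0.5), the median ratio of sorafenib to DMSO over the 12 genes was -0.19, -1.10, -0.22 and -2.18. The number of genes at least 2-fold lower was 0, 8, 3 and 10 of 12, beside 4.75%, 8.0%, 9.78% and 7.1% of all genes. For all 12 genes the lowest of the 4 ratios was that of KU-cHCC-005, from -0.46 for KIF2C to -3.84 for KIF20A. With sorafenib, KU-cHCC-001 held the highest level of each of the 12 genes and KU-cHCC-005 the lowest of each, whereas with DMSO the lowest was in KU-cHCC-004 for 11. For all 12 genes the sorafenib and DMSO ranges overlapped, while 5.44% of all genes lay below every DMSO library, and 7 of 12 were lower in 4 of 4 lines, as were 24.5% of all genes.

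**Figure D2:**
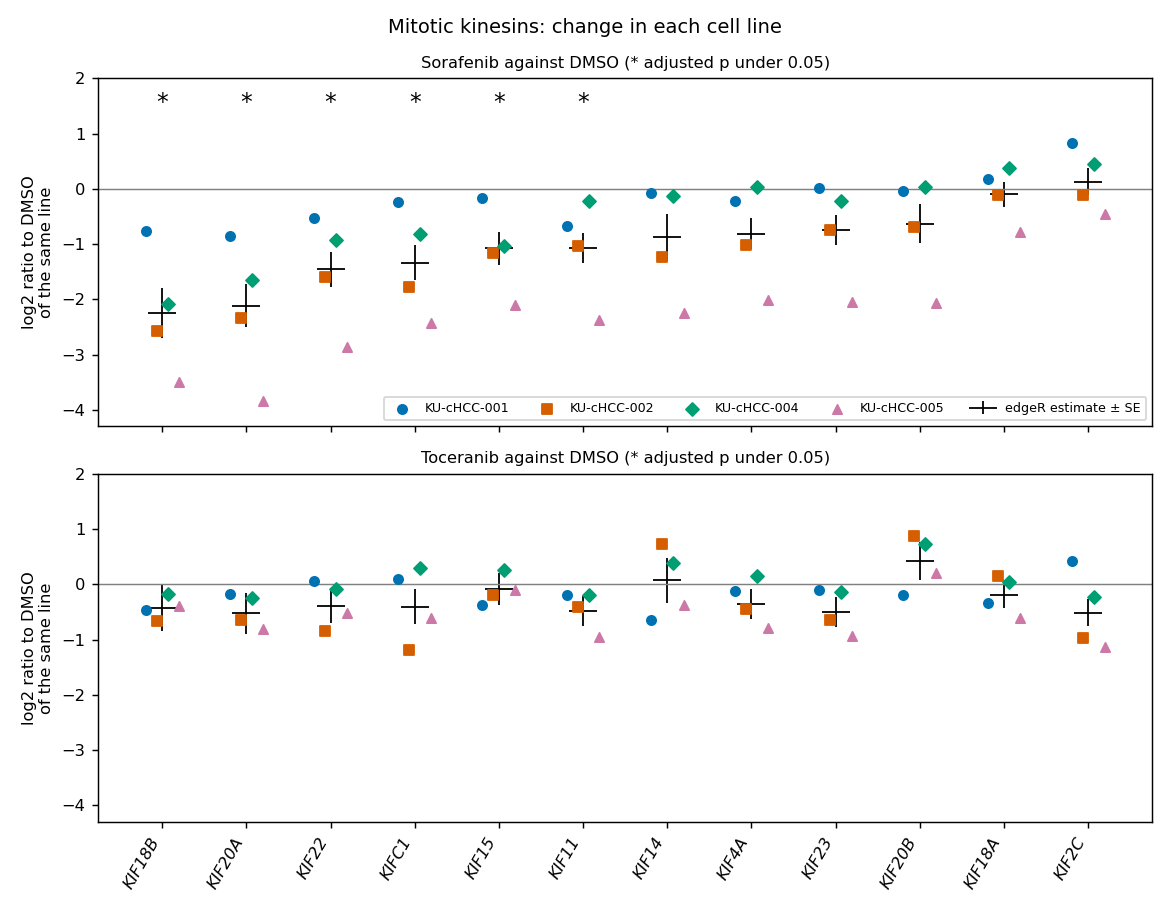
Log2 ratio of drug to DMSO for each mitotic kinesin, on log2(CPM + 0.5), for sorafenib (top) and toceranib (bottom). Each symbol is 1 cell line, the black marks are the edgeR log2 fold changes ± SE, and stars mark an adjusted p under 0.05. The sorafenib points of KU-cHCC-005 lie lowest for all 12 genes. The toceranib points lie on both sides of 0, with 9, 9, 6 and 11 of 12 below it from KU-cHCC-001 to KU-cHCC-005, and carry no star.

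A fit of the line by drug interaction asked whether the effect in one line differed from the mean of the others. For sorafenib no kinesin passed in any line, and neither did any of the 14938 genes, so no difference between lines was shown. Each line has 1 library per treatment, so the spread in this fit, with 4 residual degrees of freedom, came from the other lines alone and the line itself was assumed to vary like them. As a description, 10 of 12 mitotic kinesins had an unadjusted edgeR p under 0.05 in KU-cHCC-005, beside 1.47% of all genes, and members that vary together are not separate evidence. The median difference of the 12 from the other lines was -1.76 on the log2 scale. The most extreme was KIF20A, with a difference of -2.41 ± 0.58 (SE, edgeR adjusted p = 1). In KU-cHCC-001, 4 of 12 had such a p (7.08% of all genes), with a median difference of 1.07, and in each remaining line 0 of 12 did (0.83% and 1.48% of all genes). Among the 24 other kinesins the numbers were 2 in KU-cHCC-005, 1 in KU-cHCC-001 and 0 in each of the other lines. For toceranib 0 kinesins passed in any line, where 0.743%, 0.0%, 0.00669% and 0.0134% of all genes passed, with the smallest adjusted p at 0.113, and 5 of 24 others and 1 of 12 mitotic kinesins had an unadjusted p under 0.05 in KU-cHCC-001, beside 17.2% of all genes. In the remaining lines 1, 2 and 0 others and 0 mitotic kinesins did, beside 8.62%, 3.25% and 2.69%.

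The calls depended on which lines were in the fit. With KU-cHCC-001 left out 9 mitotic kinesins fell, and with each next line left out 0, 2 and 3 did. Over all genes the number called shifted as well, from 2935 with the 4 lines to 3906, 915, 596 and 783 in that order. The fold changes shifted too. The median of the 12 was -0.97 with the 4 lines and -0.51 without KU-cHCC-005, and without each other line it lay between -0.90 and -1.22. KIF20A and KIF18B, with the most negative changes, had values of -1.60 and -1.80 without KU-cHCC-005. Over the fits that left out a line, KIF20B ranged from -0.88 to -0.19, KIF23 from -0.99 to -0.31 and KIF18A from -0.26 to 0.17.

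Genes that mark dividing cells were also lower with sorafenib. MKI67, the Ki-67 antigen, went from 572, 510.3, 196 and 274 CPM with DMSO to 343, 81.7, 59.8 and 17.6 CPM with sorafenib, at -2.16 ± 0.43 (SE, edgeR adjusted p = 0.00772), and was likewise lowest in KU-cHCC-005. Beside the counts in the lists that follow, 10.1% of all genes fell and 9.59% rose. Of 14 proliferation markers 10 fell and 0 rose, led by RRM2 (-2.03), MCM2 (-1.71), MKI67 and CCNB1 (-1.72). Of 23 proteins that work with mitotic kinesins 9 fell and 0 rose, with the kinase PLK1 (-1.83, edgeR adjusted p = 0.00392), CDCA8 (-1.33) and INCENP (-0.89) of the chromosomal passenger complex and the kinetochore protein NDC80 (-1.18) first. Sorafenib left the 10 mesenchymal, 4 endothelial and 2 hepatocyte markers tested with 0 calls by edgeR. At an unadjusted edgeR p under 0.05 there were 0, 0 and 0, beside 5153 of all 14938 genes. Of 10 bile duct and progenitor markers 3 fell, and 1 of 4 leukocyte markers, CD68, rose (2.33). Of 25 regulators of mitotic transcription 4 fell and 3 rose, counts near those shares of all genes. FOXM1, a transcription factor that activates many mitotic genes, went from 115, 72.4, 25.8 and 37.9 to 74.1, 15.7, 6.85 and 4.30 CPM, at -1.89 ± 0.37 (SE, edgeR adjusted p = 0.00747), and E2F8 fell too (-1.94). The cell cycle inhibitor CDKN1A (1.96) and the retinoblastoma gene RB1 (1.08) rose. How far the mitotic kinesins followed the share of dividing cells was not tested.

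CENPE, which ties chromosomes to spindle microtubules, had 52.1, 50.7, 34.6 and 56.7 CPM with DMSO and 51.9, 28.6, 39.1 and 16.6 CPM with sorafenib. The libraries of KU-cHCC-002 and KU-cHCC-005 were lower with the drug, that of KU-cHCC-004 was higher, and the change of -0.58 ± 0.32 (SE, edgeR adjusted p = 0.216) did not pass.

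Outside the mitotic group several transport kinesins were higher with sorafenib. Of the 24 others tested 5 rose (KIF5B, KIF3C, KIF5C, KIF2A and KIF1B), 1 fell (KIF1C) and 18 did not pass, beside 9.59% of all genes that rose and 10.1% that fell. Their summed level was 1914, 1529, 1892 and 1603 CPM with sorafenib, higher than with DMSO in 4 of 4 lines. The share of genes higher in 4 of 4 lines was 7 of 24 here and 26.3% over all genes.

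KIF5B, KIF5C and KIF5A are the heavy chains of conventional kinesin, which carries vesicles and mitochondria. KIF5B, the form made in most cells, stood at 365, 259, 265 and 281 CPM with DMSO and 539, 456, 663 and 449 CPM with sorafenib. All 4 sorafenib values lay above all 4 DMSO values, which held for 6.57% of all genes, and the change was 0.83 ± 0.17 (SE, edgeR adjusted p = 0.00787). KIF5C, a form best known from neurons, differed widely between lines, at 104, 25.2, 0.962 and 2.99 CPM with DMSO and 117, 50.2, 4.78 and 18.9 CPM with sorafenib. Its rise of 1.43 ± 0.36 (SE, edgeR adjusted p = 0.0192) was carried by the lines where it was low, with log2 ratios of 0.17, 0.98, 1.85 and 2.48. KIF5A stayed at or below 8.88 CPM in all libraries and gave -0.71 ± 0.41 (SE, edgeR adjusted p = 0.239).

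KIF3C, a partner of KIF3A in the kinesin-2 family, rose, with close ratios in the 4 lines. It went from 83.5, 40.4, 46.1 and 36.6 to 160.5, 71.3, 79.5 and 65.2 CPM, with log2 ratios of 0.94, 0.81, 0.78 and 0.82 and a change of 0.82 ± 0.19 (SE, edgeR adjusted p = 0.0138). The ranges overlapped because KU-cHCC-001 had the most in both groups. KIF1B, which carries synaptic vesicle precursors and mitochondria, went from 184, 79.8, 106 and 86.5 to 276, 149, 186 and 111 CPM, at 0.65 ± 0.20 (SE, edgeR adjusted p = 0.0470). Without toceranib of KU-cHCC-005, which enters the shared estimate of the spread, KIF1B was not called (0.64, edgeR adjusted p = 0.053) and 4 others rose. Its relative KIF1C, a vesicle motor, was the one member that fell, from 148, 357, 335 and 293 to 110.4, 238, 218 and 228 CPM, lower in 4 of 4 lines at -0.51 ± 0.13 (SE, edgeR adjusted p = 0.0231). KIF1A, the third relative, stood at 21.5, 0.362, 5.43 and 30.1 and 64.0, 0.448, 28.98 and 166 CPM. Its change of 2.04 ± 0.69 (SE, edgeR adjusted p = 0.0602) did not pass in the 12 libraries, but it passed when the toceranib libraries were left out (1.997, edgeR adjusted p = 0.00128).

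KIF2A, a microtubule depolymerase of spindle poles and of nerve cells, is a close relative of KIF2C but was grouped with the others. It stood at 131, 78.8, 95.3 and 101 CPM with DMSO and 163, 116, 175 and 134 CPM with sorafenib, higher in every line at 0.53 ± 0.14 (SE, edgeR adjusted p = 0.0261). KIF3A and KIF3B, the motors of the complex that carries cargo into the cilium, did not pass, with -0.24 ± 0.17 (SE, edgeR adjusted p = 0.352) and 0.031 ± 0.14 (SE, edgeR adjusted p = 0.897). Nor did KIFC3, a minus-end motor of cell junctions, at 91.3, 106, 162 and 144 and 54.0, 98.8, 154 and 101 CPM (log2 fold change -0.38, edgeR adjusted p = 0.140), and KIFC2, at -0.18 ± 0.18 (SE, edgeR adjusted p = 0.513). Of the 7 tested cilium kinesins 0 were called by edgeR, 1 had an unadjusted p under 0.05 (5153 of all 14938 genes did), and the median was 0.031. The remaining members that did not pass ranged from -1.78 for KIF12, which with DMSO and sorafenib had counts in KU-cHCC-001 alone, to 0.51 for KIF17, which reached 1 CPM in KU-cHCC-001 alone.

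**Figure D3:**
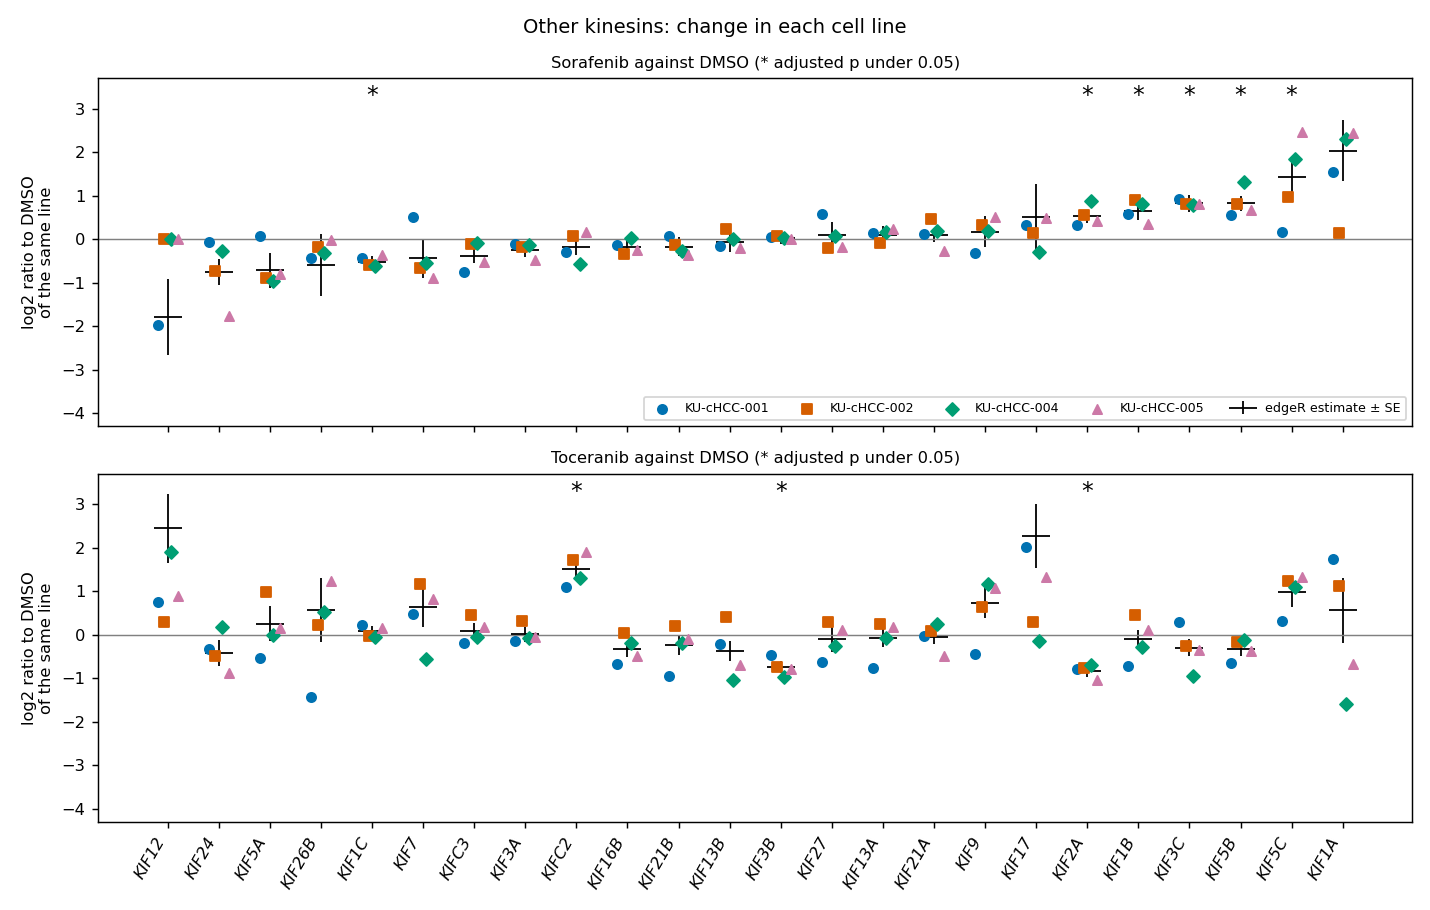
Log2 ratio of drug to DMSO for the 24 other kinesins tested, on log2(CPM + 0.5), for sorafenib (top) and toceranib (bottom), ordered by the edgeR change with sorafenib. Symbols are cell lines, black marks the edgeR log2 fold changes ± SE, and stars an adjusted p under 0.05. With sorafenib KIF5C, KIF5B, KIF3C, KIF1B, KIF2A and KIF1C are starred, and with toceranib KIFC2, KIF3B and KIF2A.

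These calls, too, differed with the lines in the fit. With KU-cHCC-001 left out 5 others rose and 3 fell. With each next line left out 1, 1 and 0 rose and 0 fell. KIF5B kept log2 fold changes of 0.67 to 0.94 in the 4 fits, with edgeR adjusted p-values of 0.00516 to 0.0833, and was called in 2 of them. KIF3C gave 0.81 to 0.85, with adjusted p-values of 0.00951 to 0.0773, and was also called in 2 of 4. With all 16 libraries in the fit 2 rose and 0 fell, and 2034 of all 15515 genes were called.

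Cargo and regulatory partners of transport kinesins were next. Of 22 such genes 6 rose with sorafenib and 0 fell, with a median log2 fold change of 0.40, beside 9.59% and 10.1% of all genes and a median of -0.024. RAB3GAP1, a regulator of RAB GTPases (1.01), the scaffold SPAG9 (0.98), the kinesin receptor KTN1 (0.69) and the lysosomal adaptor PLEKHM2 (0.55) came first. The light chains of conventional kinesin did not pass, at 0.36 ± 0.13 (SE, edgeR adjusted p = 0.0775) for KLC1, 0.39 ± 0.16 (SE, edgeR adjusted p = 0.104) for KLC2, -0.26 ± 0.27 (SE, edgeR adjusted p = 0.540) for KLC3 and -0.051 ± 0.17 (SE, edgeR adjusted p = 0.866) for KLC4. KIFAP3, the third subunit of the cilium complex, gave 0.13 ± 0.16 (SE, edgeR adjusted p = 0.593). Dynein and dynactin, which walk the opposite way, had 1 gene higher of 24 (NDEL1, 0.65) and 0 lower, no more than the shares of all genes. Of 12 tubulins 3 fell (TUBB4B, -1.47, TUBB, -1.01, and TUBB4A, -0.70) and 1 rose (TUBE1, 0.99). The 22 intraflagellar transport genes had 3 lower and 3 higher, near the shares of all genes, among them IFT140 (-1.21), IFT22 (-0.94), IFT122 (1.08) and IFT20 (0.90).

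Toceranib changed few kinesins. Of the 12 mitotic kinesins 0 passed in either direction with edgeR, beside 3.15% of all genes that fell and 4.31% that rose (7.46% in either direction). An unadjusted edgeR p under 0.05 was found for 0 of the 12, beside 4120 of all 14938 genes. DESeq2 also called 0. The median log2 fold change was -0.39, with values from -0.52 for KIF20A to 0.42 for KIF20B. The summed level was 1045, 685, 523 and 451 CPM, and the group took 33.1% ± 7.39 (SD, n = 4) of kinesin CPM. Per line the median ratios were -0.18, -0.55, -0.020 and -0.61, and 0, 1, 0 and 1 of the 12 were at least 2-fold lower, beside 4.79%, 8.07%, 5.25% and 6.32% of all genes. KIF20A stood at 93.4, 45.7, 43.2 and 32.5 CPM, KIF11 at 218, 119, 92.7 and 73.3 CPM and KIF18B at 24.7, 17.4, 13.3 and 11.4 CPM. Each of these 3 was below DMSO in 4 of 4 lines, as were 14.7% of all genes, by less than the fit could call. Without KU-cHCC-001 KIF2C was called lower (-0.79, edgeR adjusted p = 0.0326), the one mitotic call for toceranib in the fits that left out a line. MKI67, at 434, 309.7, 189.5 and 164 CPM, did not pass either (log2 fold change -0.51, edgeR adjusted p = 0.431), nor did FOXM1 (log2 fold change -1.08, edgeR adjusted p = 0.0833) or CENPE (log2 fold change 0.08, edgeR adjusted p = 0.893).

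Of the 24 others 1 rose with toceranib and 2 fell. KIFC2, a minus-end motor known from nerve cells, stood at 28.2, 25.5, 24.1 and 18.7 CPM with DMSO and 61.1, 85.9, 60.2 and 71.9 CPM with toceranib. All toceranib values were above all DMSO values, a pattern seen in 4.0% of all genes, and the change was 1.52 ± 0.18 (SE, edgeR adjusted p = 0.00630). KIF2A stood at 75.1, 46.0, 58.9 and 49.0 CPM and KIF3B at 59.7, 57.2, 45.0 and 40.9 CPM, against 81.7, 95.4, 88.2 and 71.1 CPM with DMSO for KIF3B. Both lay below every DMSO library, as did 3.52% of all genes, at -0.83 ± 0.14 (SE, edgeR adjusted p = 0.0168) and -0.74 ± 0.14 (SE, edgeR adjusted p = 0.0193). KIF5B was also below every DMSO library, at 235, 231, 245 and 218 CPM, but its change of -0.32 ± 0.17 (SE, edgeR adjusted p = 0.227) did not pass.

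Toceranib against DMSO also holds the difference between the vehicles. Its calls are given without the toceranib library of KU-cHCC-005 and with the other control. In that library the 10 mesenchymal markers tested had a median log2 ratio to DMSO of 4.52, against 0.021 to 0.60 in the other lines, and the part of this in the kinesin values was not tested. Without that library KIFC2 was still called (1.44, edgeR adjusted p = 0.0295), and KIF2A (-0.78, edgeR adjusted p = 0.0632) and KIF3B (-0.73, edgeR adjusted p = 0.0699) were not. With KU-cHCC-001 left out as a whole 2 were lower and 3 higher, and with any other line left out 0 were called. How many of all genes these fits called for toceranib was not counted. With DPBS as the control, in which the libraries form 2 close pairs, 0 kinesins were called, as were 0 of 15515 genes. An unadjusted edgeR p under 0.05 was found for 5 of 25 others and 0 mitotic kinesins, beside 1875 of the 15515 genes. KIFC2 stood at 37.7, 57.2, 43.3 and 46.3 CPM in the DPBS libraries, between DMSO and toceranib, and changed by 0.92 ± 0.17 (SE, edgeR adjusted p = 0.0231) from DMSO to DPBS. It was the 1 kinesin called between the vehicles, where 2.91% of all genes were higher and 1.72% lower. The fits with DPBS took its 4 libraries as separate replicates paired by the labelled line. The 2 close pairs put both in doubt, so SE and p-values of these fits are uncertain. Toceranib against DPBS gave 0.59 for KIFC2, -0.44 for KIF2A and -0.37 for KIF3B.

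**Figure D4:**
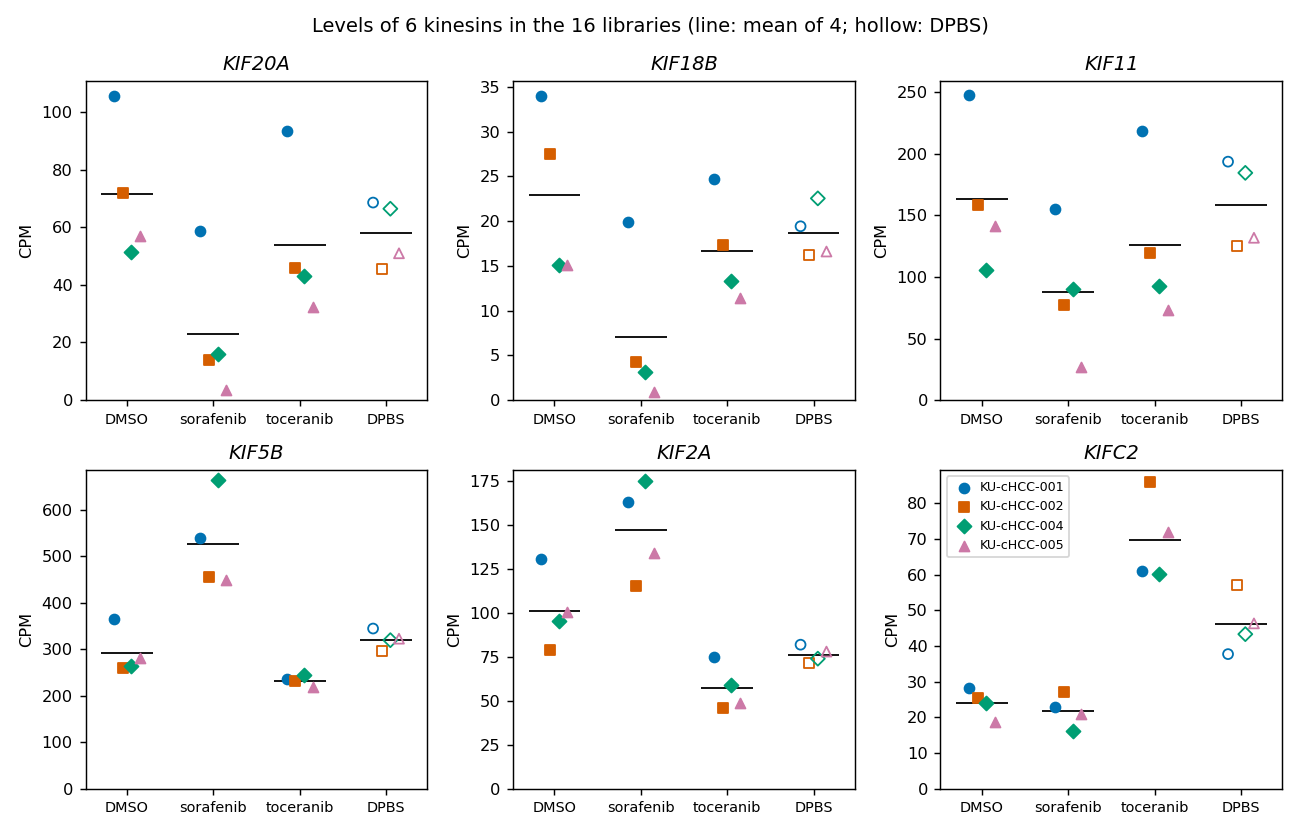
CPM of KIF20A, KIF18B, KIF11, KIF5B, KIF2A and KIFC2 in the 16 libraries, chosen for display after their values were seen; symbols are cell lines as labelled, horizontal lines the mean of 4 libraries, hollow symbols the DPBS libraries, and axes start at 0. The sorafenib points of KIF5B lie above all DMSO points, and the toceranib points of KIFC2 lie above, and those of KIF2A below, all DMSO points.

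With toceranib, 3.15% of all genes fell and 4.31% rose. The calls of list genes given here were not checked without toceranib of KU-cHCC-005. Of the 23 mitotic partners 3 fell (BIRC5, -0.95, NUSAP1, -0.58, and RACGAP1, -0.77) and 0 rose. An unadjusted edgeR p under 0.05 was found for 12 of them, beside 4120 of all 14938 genes. BIRC5 and RACGAP1 are the survivin and centralspindlin subunits that act with KIF20A and KIF23. The motor scaffold MAPK8IP3 was the 1 transport partner of 22 that rose (1.45). DYNLL2 (-0.75) and NDE1 (-1.04) of the dynein list fell, and so did E2F4 (-0.64) among the regulators of mitotic transcription. By edgeR 0 of 14 proliferation markers, 0 of 12 tubulins and 0 of 22 intraflagellar transport genes were called. At an unadjusted p under 0.05 there were 3, 2 and 5.

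The 2 drugs were then compared directly, a contrast that holds no DMSO library. Their vehicles differed, DMSO for sorafenib and DPBS for toceranib, so drug and vehicle cannot be told apart in this contrast. Sorafenib was lower than toceranib for 6 of 12 mitotic kinesins and higher for 0, beside 20.1% and 18.3% of all genes, 38.4% in all. These were KIF18B (log2 fold change -1.81, edgeR adjusted p = 0.00922), KIF20A (log2 fold change -1.59, edgeR adjusted p = 0.00831), KIF22 (-1.08), KIF20B (-1.05), KIF15 (-0.996) and KIFC1 (-0.94). KIF11 (log2 fold change -0.60, edgeR adjusted p = 0.103) did not pass here although it did against DMSO. KIF14 (log2 fold change -0.95, edgeR adjusted p = 0.103), KIF4A (log2 fold change -0.46, edgeR adjusted p = 0.212), KIF23 (log2 fold change -0.25, edgeR adjusted p = 0.491) and KIF18A (log2 fold change 0.098, edgeR adjusted p = 0.751) did not pass either. KIF2C had the opposite sign at 0.64 ± 0.24 (SE, edgeR adjusted p = 0.0567), and it was higher with sorafenib in 4 of 4 lines. The median of the 12 was -0.94, and the medians per line were 0.013, -0.69, -0.61 and -1.84, with KU-cHCC-001 close to 0. Without toceranib of KU-cHCC-005 2 mitotic kinesins were lower, and KIF15, KIF20B, KIF22 and KIFC1 were no longer called (edgeR adjusted p = 0.0578 to 0.086). With each line left out in turn the numbers were 7, 0, 1 and 2. How many of all genes these fits called between the drugs was not counted, so the numbers may follow it.

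Among the others, 5 were higher with sorafenib and 4, KIF12 included, lower, counts near the 18.3% and 20.1% of all genes. KIF2A (log2 fold change 1.35, edgeR adjusted p = 1.63e-04), KIF5B (log2 fold change 1.15, edgeR adjusted p = 6.60e-04) and KIF3B (log2 fold change 0.77, edgeR adjusted p = 0.00204) were higher with sorafenib in every library than with toceranib in any, which held for 10.8% of all genes. KIF3C (log2 fold change 1.11, edgeR adjusted p = 0.00158) and KIF1B (log2 fold change 0.73, edgeR adjusted p = 0.0171) were higher with overlapping ranges. KIFC2 (log2 fold change -1.71, edgeR adjusted p = 1.69e-04) was lower in every sorafenib library than in any toceranib library, as were 9.81% of all genes. KIF1C (log2 fold change -0.59, edgeR adjusted p = 0.00615) and KIFC3 (log2 fold change -0.47, edgeR adjusted p = 0.0464) were lower by less. The KIFC3 call was lost without toceranib of KU-cHCC-005 (-0.42, edgeR adjusted p = 0.133) and in each fit that left out a line, and held in 2 of 11 alternatives. The same direct test called KIF2A, KIF3B, KIF5B and KIFC2 in all 11 alternative fits, none of which changed the vehicle. From DMSO to DPBS the log2 fold changes of these genes were -0.38, -0.37, 0.14 and 0.92. The part of the vehicle in the difference between the drugs was not tested. Of the partners, KLC2 was higher with sorafenib (log2 fold change 0.69, edgeR adjusted p = 0.00686), and RHOT1 (0.70) and RHOT2 (-0.96), which tie mitochondria to kinesin, went opposite ways.

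KIF12 needs its counts beside it. It is a kinesin of epithelia such as kidney and bile duct, and it stood at 16.2, 0, 0 and 0 CPM with DMSO, 3.79, 0, 0 and 0 CPM with sorafenib and 28.0, 0.119, 1.36 and 0.424 CPM with toceranib. The call between the drugs (log2 fold change -4.23, edgeR adjusted p = 0.00470) therefore came from KU-cHCC-001 and from toceranib values of 0.119 to 1.36 CPM against 0 counts in the other lines. With counts of 0 in 3 sorafenib libraries, the fitted fold depends on the prior count and is no bound. Beside KU-cHCC-001, KIF12 passed the filter on low counts through toceranib of KU-cHCC-004 (25 counts). The drug in which it was high thus helped it into the test.

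Several kinesins were close to silent. KIF19 and KIF25 and the depolymerase KIF2B had 0 counts in all 16 libraries, which allows at most 0.137 to 0.25 CPM per library (3 counts, counting error only). KIF6 had at most 0.111 CPM and KIF26A at most 1.05 CPM, under 1 CPM in 15 of 16 libraries. These 5 entered no test. KIF26B was under 1 CPM in 14 libraries, KIF17 in 13, KIF12 in 11, KIF1A in 3, KIF7 in 2 and KIF18B and KIF5C in 1 each. KIF6, KIF9 and KIF19 serve motile cilia, and KIF9 stayed between 1.22 and 6.66 CPM. KIF17, KIF12 and KIF26B thus passed the filter mainly through KU-cHCC-001, along with toceranib libraries of other lines. KIF12 had 25 counts with toceranib of KU-cHCC-004, and KIF17 had 9 with toceranib of KU-cHCC-005.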

How the data were processed

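Gene counts of 16 libraries (4 canine lines, 4 treatments) were analysed as the authors deposited them. Per the labels' protocols, RNA was extracted with Trizol and libraries were made with a directional kit. Per the submitters' processing notes, reads were aligned with TopHat. For its version, the genome build, the counter and the strand setting the sources used here give nothing. Of 39954 entries, 500 shared 89 symbols; no kinesin symbol was repeated.

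Counts were fitted with edgeR 4.0.16 (R 4.3.3; quasi-likelihood, robust, TMM scaling, filterByExpr) on the 12 DMSO, sorafenib and toceranib libraries with the line as a block, which left 14938 genes and 6 residual degrees of freedom. P-values were adjusted over all genes (Benjamini-Hochberg) and called below 0.05. Samples were paired by the labelled line. Correlations of same-line deviations were 0.753 to 0.892 (DMSO, sorafenib) and 0.56 to 0.797 (DMSO, toceranib). Those of DMSO with DPBS ran from -0.455 to 0.29, and 1 of 4 DPBS libraries matched best with DMSO of its labelled line. The pairing is therefore not shown for DPBS. Ratios per line used log2(CPM + 0.5). The script was tested on simulated data. Symbols were matched to RefSeq genes (41 of 41), and 18 kinesins overlap another gene model, 7 of them a coding one, so their counts are uncertain.

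The kinesins and gene lists were chosen with earlier results of these data known. Named were all mitotic kinesins, every other kinesin called in any contrast, the 6 others with the highest mean CPM in DMSO, those under 1 CPM in every library and up to 4 called genes per list with the smallest p. CENPE, KIFAP3, the KLC genes, MKI67 and FOXM1 were always named, and further genes were chosen after their values were seen. Alternatives were all 16 libraries, only the 8 libraries compared, no block, DESeq2 1.42.0, median-of-ratios scaling, no filter, DPBS as control and leaving out each line. Interaction fits under other scaling and filter, and leaving out toceranib of KU-cHCC-005, were also run. Levels per gene length and sequences were not analysed here.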

Additional observations from a re-analysis of the deposited data

Results flagged for a closer look

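Of 152 groups of 4 libraries tested (1 kinesin, or the sum of a kinesin group, in 1 treatment), 20 held a library far from the other 3, by Dixon's test at the 95% level. Chance alone gives such a library in about 1 in 20 groups. The distant library was KU-cHCC-001 in all 20, with 6 in DMSO, 8 in sorafenib, 6 in toceranib and 0 in DPBS. KIF12, KIF17 and KIF26B passed the filter on low counts mainly through KU-cHCC-001, along with toceranib of other lines. The filter itself thus favoured a distant library there. The chance rate does not hold for groups of these genes. The DPBS libraries form close pairs, which leaves little room for a lone distant library, so no conclusion is drawn from the 0 in DPBS.

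KU-cHCC-001 stood above the other lines in 18 of the groups with a distant library. KIF12 was at 16.2 CPM with DMSO (0 in the others), 3.79 with sorafenib (0) and 28.0 with toceranib (0.119 to 1.36). KIF17 was at 2.67 CPM with DMSO (0 to 0.113), 3.48 with sorafenib (0 to 0.207) and 12.4 with toceranib (0.0545 to 0.763). KIF26B was at 2.20 CPM with DMSO (0.111 to 0.452) and 1.5 with sorafenib (0.0996 to 0.265).

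With DMSO, KIF14 was at 40.8 CPM (11.2 to 15.6 in the others), KIF16B at 50.9 (21.2 to 22.7) and KIF9 at 6.66 (1.22 to 2.11). With sorafenib, KIF27 was at 27.2 CPM (2.54 to 6.10), KIF5A at 7.49 (1.29 to 2.04), KIF2C at 64.8 (20.5 to 27.3) and KIF3C at 160 (65.2 to 79.4). With toceranib, KIF2C was at 48.9 CPM (12.6 to 16.6), KIF3C at 103 (23.9 to 34.0) and KIF22 at 72.7 (39.4 to 44.7). KIF1C was the exception, lowest in KU-cHCC-001 at 110 CPM with sorafenib (219 to 238) and 174 with toceranib (325 to 350).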

How the results depend on the processing

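No kinesin changed direction past a threshold in any alternative. Of 1208 values for single genes, 113 lost their call and 24 gained one. Only kinesins called in the main fit could lose a call, so 113 is not a share of all 1208. Lost calls numbered 48 for sorafenib, 19 for toceranib and 46 between the drugs. With toceranib the calls of KIFC2, KIF2A and KIF3B held in 7, 5 and 5 of 12 alternatives. Without the line block (no pairing), sorafenib against DMSO called 0 mitotic kinesins lower, 0 others lower and 1 other higher. Of all 14938 genes 464 were called in that fit, against 2935 with the block, so calls were lost well beyond the kinesins. Toceranib against DMSO then called 0 others lower and 0 higher, and sorafenib against toceranib 0 mitotic kinesins lower, 1 other lower and 3 others higher. Leaving out each line in turn gave, for sorafenib against DMSO, 0 to 9 mitotic kinesins lower, 0 to 3 others lower, 0 to 5 others higher and a median of the others from -0.0773 to 0.0277. For toceranib against DMSO it gave 0 to 1 mitotic kinesins lower, 0 to 2 others lower and 0 to 3 higher. For sorafenib against toceranib it gave 0 to 7 mitotic kinesins lower, 0 to 1 higher and 2 to 4 others lower, and for DPBS against DMSO 0 to 1 others higher.

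With all 16 libraries sorafenib gave 0 others lower and 2 higher, where 2034 of 15515 genes were called. It was below toceranib for 2 others. With only the libraries compared, toceranib gave 0 others lower, where 129 of 14282 genes were called in either direction. Sorafenib was then below toceranib for 2 others and above it for 1 mitotic kinesin, where 3949 of 14320 genes were called. DESeq2 called 3 others higher with toceranib, and 7 others lower and 1 mitotic kinesin higher between the drugs. With no filter 0 others were lower with sorafenib (median of the others -0.0946), where 2594 of 27532 genes were called in either direction. Between the drugs 1 mitotic kinesin was then higher, and 1 kinesin had a different toceranib effect in KU-cHCC-001. Without toceranib of KU-cHCC-005 the sorafenib median of the others was -0.052, toceranib gave 0 others lower and 2 mitotic kinesins were lower between the drugs. DPBS as control gave 0 others lower, 0 higher and a median of -0.2872. Except with only the libraries compared and with DPBS as control, all genes called were counted for sorafenib against DMSO alone. The other counts lack that share. The causes were not tested. With 1 library per line and treatment, few libraries stand behind each call, and genes with few counts carry wide counting error.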
